A study of Mus musculus with 6 samples.

Results

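Enzymes that make or clear amyloid beta, and cystatin C, were followed in lymphatic endothelial cells of the mouse meninges. The genes are Adam10, Adam17, Ncstn, Ece1, Ide and Cst3, picked by name for their known roles, with earlier results of these data known, and the deposited table lists all 6 of them among its 4233 genes. RNA was sequenced from cells sorted as DAPI-negative, CD45-negative singlets positive for CD31 and podoplanin. The tested mice were hemizygous for 5xFAD, transgenes with familial Alzheimer disease mutations driven by the neuronal Thy1 promoter, and were compared with non-transgenic littermates (WT). All were C57BL/6J males aged 6 months. There were 3 libraries of each genotype, and each library was a pool of cells from 10 mice, so differences between single mice cannot be seen.

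Amyloid beta is cut from a larger membrane protein. A beta-secretase and then the gamma-secretase complex release it, while alpha-secretases cut inside the peptide and prevent its release. Secreted and membrane peptidases degrade the peptide outside neurons, also in vessel walls and along the routes by which fluid leaves the brain, of which the meningeal lymphatic vessels are one. Cystatin C binds amyloid beta and inhibits cysteine cathepsins, which are lysosomal proteases.

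Lymphatic endothelial markers were measured in the sorted cells, beside markers of other cell types. Prox1, the transcription factor of lymphatic fate, was at 37762, 16239 and 24190 in 5xFAD and at 23391, 14913 and 23828 in WT. Pdpn, which encodes podoplanin, was at 877 to 2049 over the libraries. Markers of blood endothelium were also present, 7 of 12, with a summed level of 26091 to 41457 in 5xFAD and 18096 to 29449 in WT. The fibroblast marker Dcn was at 4279 to 11777 and the choroid plexus marker Ttr at 2652 to 7004, so the purity of the sort was not settled by these values. Reads recovered over the listed genes numbered 7960827 to 13255050 per library, and 86 to 147 listed genes had no reads in a 5xFAD library, against 25 to 42 in a WT library.

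The catalytic sites of the 4 metallopeptidases and the protease-binding loop of cystatin C show how the family is built, and are printed from the coding sequence of GENCODE M21 on GRCm38, 5′ to 3′ in the direction of the gene. Capitals mark the codons of the site. Adam10 and Adam17 share the long zinc-binding motif of their family, with histidines spaced around a glutamate, and 26 of the 33 bases of that motif are identical between them. Ece1 has the short form of the motif. Ide has it in reverse order, the mark of the inverzincins. The stretches of Adam10 and Cst3 run across an intron, and the others lie within 1 coding exon.
Adam10 (chr9:70754284-70761597, + strand): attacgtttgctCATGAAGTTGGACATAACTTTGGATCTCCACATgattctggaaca
Adam17 (chr12:21336720-21336776, - strand): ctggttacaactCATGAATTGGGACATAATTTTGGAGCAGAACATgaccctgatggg
Ece1 (chr4:137957160-137957198, + strand): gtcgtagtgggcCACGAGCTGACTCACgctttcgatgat
Ide (chr19:37329124-37329162, - strand): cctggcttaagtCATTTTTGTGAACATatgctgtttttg
Cst3 (chr2:148872907-148875167, - strand): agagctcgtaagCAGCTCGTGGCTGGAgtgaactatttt

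None of the 6 genes passed the test between genotypes. In the main limma test the clearest difference was in Ece1, the endothelin-converting enzyme. Its mean was 1.72-fold higher in WT, and its 3 5xFAD libraries all lay below the 3 WT libraries. Adam17 and Cst3 had larger fold differences in the same direction, but their groups overlapped. Adam10, Ncstn and Ide differed by less than the spread between libraries. The test was limma, fitted to log2(normalized value + 1) of the 4152 genes with a mean of at least 10 and adjusted over all of them. It called 0 of the 6 genes, against 6.36% of all tested genes called in either direction (1.88% higher and 4.48% lower in 5xFAD). At an unadjusted p under 0.05 limma gave 1 of the 6, Ece1, against 16.3% of all tested genes. On whole reads recovered from the table, edgeR, voom and DESeq2 also called 0 of the 6. Unadjusted, edgeR and voom gave Ece1 and DESeq2 gave 0 genes. With DESeq2, Adam17 ranked ahead of Ece1 (DESeq2 unadjusted p = 0.0875 against 0.229). Across all tested genes edgeR called 6.05% (16.7% unadjusted), voom 6.94% (16.9%) and DESeq2 10.3% (20.3%). Groups that did not overlap were seen in 1 of the 6 genes and in 18.1% of all tested genes.

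**Figure D1:**
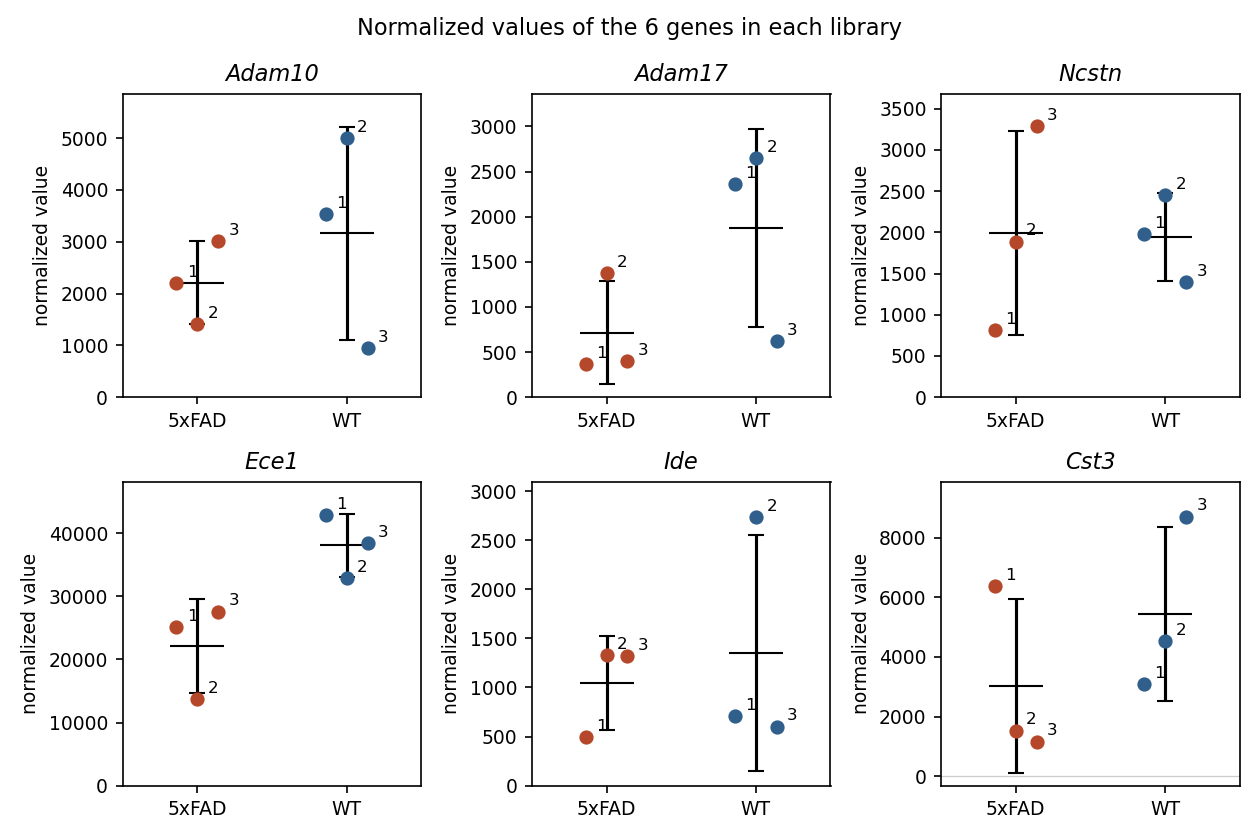
Normalized values (vertical axis, starting at or below 0) of each gene in the 3 5xFAD and 3 WT libraries, numbered by replicate, with the mean and SD as black bars. In Ece1 the 5xFAD libraries lie between 13681 and 27580 and the WT libraries between 32896 and 42913, and in the other 5 genes the groups overlap.

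Adam10 encodes the protease that carries out most constitutive alpha-secretase cleavage in neurons and that cuts Notch receptors after ligand binding. It spans chr9:70678997-70780229 on the plus strand. Adam10 was at 2206, 1403 and 3008 in 5xFAD 1, 2 and 3, against 3527, 5005 and 951 in WT 1, 2 and 3. The lowest of all 6 libraries was WT 3 and the highest WT 2, so the 5xFAD values fell inside the WT range. The means were 2206 ± 802 in 5xFAD and 3161 ± 2051 in WT (SD, n = 3 each). The log2 fold change was -0.28 (SE 0.81, 95% interval -1.87 to 1.31; limma adjusted p = 0.924). That interval allows 5xFAD levels from 0.273 to 2.47 times WT. The estimate turned positive without 5xFAD 2 (0.0085) or without WT 2 (0.20).

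Adam17, also known as TACE, sheds tumour necrosis factor and many adhesion molecules and acts as an inducible alpha-secretase. It lies on the minus strand at chr12:21323509-21373632. Adam17 was at 369, 1375 and 398 in the 5xFAD libraries, against 2363, 2648 and 624 in the WT libraries. A pair of 5xFAD libraries lay below every WT library, while 5xFAD 2 lay above WT 3. The means were 714 ± 573 in 5xFAD and 1878 ± 1096 in WT (SD, n = 3 each). The log2 fold change was -1.42, the largest of the 6 (SE 0.94, 95% interval -3.27 to 0.43; limma adjusted p = 0.492), and the exact permutation p was 0.2, two-sided. It stayed negative with each library left out in turn, between -2.09 and -1.05. Its exons overlap those of Iah1 on the opposite strand by up to 311 bases, so part of the reads could belong to either gene unless strand was used.

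Adam10 and Adam17 kept a steady ratio in WT and not in 5xFAD. The ratio of their normalized values was 5.98, 1.02 and 7.56 in the 5xFAD libraries, against 1.49, 1.89 and 1.52 in the WT libraries. The ratio spanned 7.41-fold within 5xFAD and 1.27-fold within WT, although each of the genes spanned over 4-fold in WT (5.26-fold for Adam10 and 4.25-fold for Adam17). The 5xFAD ratios lay on both sides of the WT ratios. A ratio within a library does not depend on how libraries were scaled. The pair was chosen after its values were seen and is given without a test.

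Ncstn encodes nicastrin, the subunit of gamma-secretase that receives substrates. It lies on the minus strand at chr1:172066013-172082795. Ncstn was at 818, 1887 and 3286 in the 5xFAD libraries, against 1979, 2457 and 1397 in the WT libraries. The 5xFAD values enclosed the WT values, with both the lowest and the highest library in 5xFAD. The means were 1997 ± 1238 in 5xFAD and 1944 ± 531 in WT (SD, n = 3 each). The ratio of means was thus 1.03, while the log2 fold change was -0.14 (SE 0.85, 95% interval -1.81 to 1.53; limma adjusted p = 0.965). The estimate was positive without 5xFAD 1 (0.39), without WT 2 (0.047) and with DESeq2 (0.036). Its exons overlap those of Copa, also in the table, by up to 195 bases on the opposite strand. No other gamma-secretase subunit and neither beta-secretase was measured in the table used here, so the complex was seen through this 1 subunit.

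Ece1 encodes endothelin-converting enzyme 1, a membrane metallopeptidase of endothelial cells that activates endothelins and degrades amyloid beta. It spans chr4:137862237-137965229 on the plus strand. Ece1 was at 25134, 13681 and 27580 in the 5xFAD libraries, against 42913, 32896 and 38375 in the WT libraries. Every 5xFAD library was below every WT library, and 10.1% of all tested genes showed that pattern. The means were 22131 ± 7420 in 5xFAD and 38061 ± 5016 in WT (SD, n = 3 each). The log2 fold change was -0.84 (SE 0.36, 95% interval -1.54 to -0.13), with an unadjusted p of 0.02 and a limma adjusted p of 0.173. The exact permutation p was 0.1, two-sided, the smallest that 3 against 3 can give. Recovered reads of Ece1 numbered 30303, 11253 and 20788 in 5xFAD and 52218, 35377 and 43381 in WT. Counting error of the sequenced reads was thus small beside the spread between libraries. The RNA was amplified before sequencing, and error from the number of starting molecules cannot be read from these counts.

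The Ece1 difference kept its sign in every setting and left-out library tried, from -1.03 to -0.52. In the main fit the prior for the variance had infinite degrees of freedom, so the SE of Ece1 reflects the spread typical of abundant genes (fitted SD 0.44 on the log2 scale, against 0.41 for the residuals of Ece1 itself). With 1 prior for genes of all levels the SE was 0.83 and the limma adjusted p was 0.730. In that setting Adam17 (limma adjusted p = 0.490) and Cst3 (0.623) ranked ahead of Ece1. With quantile normalization, which sets values by rank alone, the log2 fold change was -1.03 and Ece1 passed (limma adjusted p = 0.0234), where 3.85% of tested genes were called lower and 6.74% in either direction. The lowest value, 5xFAD 2, carried part of the size: without it the log2 fold change was -0.52 (limma adjusted p = 0.516). Among 9 measured pan-endothelial markers (of 10), 8 estimates were negative, against 50.65% of all tested genes. Of these markers 1, Robo4, passed as lower (limma adjusted p = 0.0151), against 4.48% of all tested genes. Their summed level was 37396 to 53317 in 5xFAD and 50811 to 81816 in WT, and its part in the Ece1 difference was not tested. A large part of the lower sum in 5xFAD came from Robo4 alone, with means of 3674 in 5xFAD and 13415 in WT. In bulk samples, fewer cells of a type and less RNA per cell cannot be told apart. Lymphatic markers were measured for 13 of 14 genes. Of these limma called 0, against 6.36% of all tested genes, and gave 1, Nrp2, an unadjusted p under 0.05, against 16.3%. Their summed level was 260017 to 400624 in 5xFAD and 276039 to 319924 in WT.

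**Figure D2:**
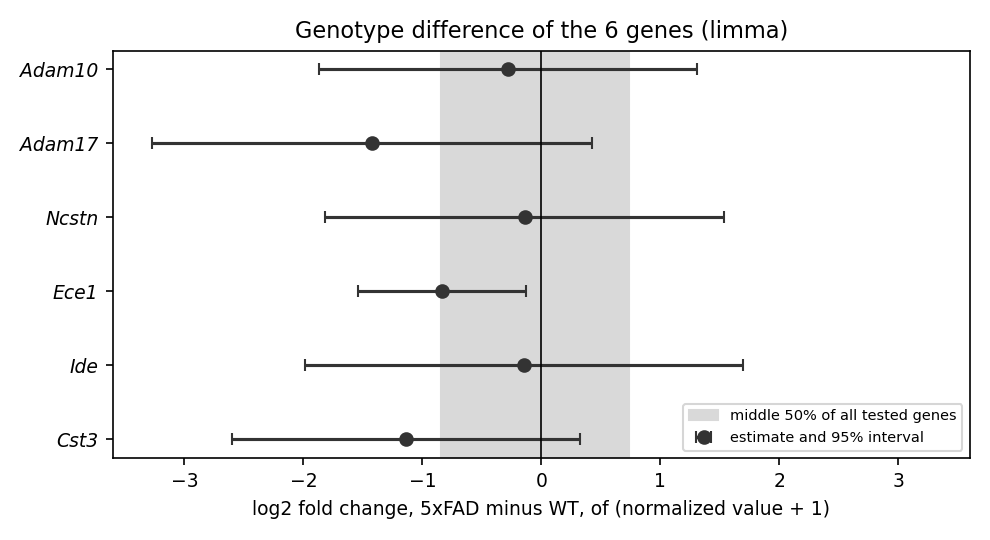
Log2 fold change between genotypes (horizontal axis, 5xFAD minus WT, of normalized value + 1) for each gene with its 95% interval from limma, over a grey band for the middle 50% of all tested genes (-0.85 to 0.74). All 6 estimates are negative, and the interval of Ece1, -1.54 to -0.13, is the only one that leaves out 0.

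The gene-level values of Ece1 add up transcripts from several start sites, which RefSeq places in 4 promoter windows (GRCm38.p6, each from 250 bases before to 50 after a start). A pair of these windows is shown because the start sites, known to give enzyme isoforms with different amino termini, could not be separated in these data. Capitals mark GGGCGG or its reverse complement CCGCCC, the GC box, searched on both strands.
Ece1 upstream start (chr4:137861987-137862286, + strand): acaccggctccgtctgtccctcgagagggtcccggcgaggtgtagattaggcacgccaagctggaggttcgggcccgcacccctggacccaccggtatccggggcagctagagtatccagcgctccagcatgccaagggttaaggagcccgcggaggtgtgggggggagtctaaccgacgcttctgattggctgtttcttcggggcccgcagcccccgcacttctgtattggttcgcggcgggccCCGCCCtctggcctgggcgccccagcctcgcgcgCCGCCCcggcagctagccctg
Ece1 internal start (chr4:137913308-137913607, + strand): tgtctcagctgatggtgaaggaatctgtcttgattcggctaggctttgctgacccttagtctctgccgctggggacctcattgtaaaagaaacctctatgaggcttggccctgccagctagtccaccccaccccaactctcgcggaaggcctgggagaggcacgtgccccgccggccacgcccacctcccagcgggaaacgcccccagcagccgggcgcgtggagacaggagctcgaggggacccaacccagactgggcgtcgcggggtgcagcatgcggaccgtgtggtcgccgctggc
The upstream window holds 2 GC boxes and the internal one 0, and 35.7% of the 32851 windows in the RefSeq table hold at least 1. Over the 9 windows of the 6 genes, 6 hold a GC box and 0 hold TATAAA or its reverse complement, which 13.6% of all windows do. The first 2 Ece1 windows overlap and hold the same GC boxes, so these hits are not independent. These are matches of letters and say nothing about binding.

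Ide encodes insulin-degrading enzyme, a mostly cytosolic and secreted peptidase that cleaves insulin and monomeric amyloid beta. It lies on the minus strand at chr19:37268743-37337852. Ide was at 494, 1326 and 1317 in the 5xFAD libraries, against 711, 2735 and 601 in the WT libraries. WT 2 stood alone at the top, and the other WT libraries lay inside the 5xFAD range. The means were 1046 ± 478 in 5xFAD and 1349 ± 1202 in WT (SD, n = 3 each). The log2 fold change was -0.14 (SE 0.94, 95% interval -1.99 to 1.70; limma adjusted p = 0.966). It was positive without 5xFAD 1 (0.33) or without WT 2 (0.54).

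Cst3 encodes cystatin C, the secreted inhibitor. It lies on the minus strand at chr2:148871722-148875692. Cst3 was at 6379, 1534 and 1164 in the 5xFAD libraries, against 3077, 4539 and 8701 in the WT libraries. A pair of 5xFAD libraries lay below every WT library, and 5xFAD 1 lay above 2 of the 3 WT libraries. The means were 3026 ± 2910 in 5xFAD and 5439 ± 2918 in WT (SD, n = 3 each). The log2 fold change was -1.14 (SE 0.74, 95% interval -2.60 to 0.32; limma adjusted p = 0.484), and the exact permutation p was 0.3, two-sided. Its sign held with each library left out in turn, from -1.89 without 5xFAD 1 to -0.66 without 5xFAD 3. The residual SD of Cst3 was 1.07 on the log2 scale, and 26.5% of the 200 tested genes nearest in level had a larger one (median 0.90).

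Cst3 is also made by fibroblasts, macrophages and choroid plexus cells, and markers of such cells were in the table in part. The sort, on CD45-negative cells positive for CD31 and podoplanin, was set to leave out macrophages, which carry CD45, and fibroblasts and choroid plexus epithelium, which lack CD31. How fully it did so was not tested. Over the libraries the fibroblast marker Dcn was at 4279 to 11777 and the choroid plexus marker Ttr at 2652 to 7004. The summed level of 5 of 12 meningeal fibroblast markers was 27000, 28373 and 29079 in the 5xFAD libraries, against 26883, 26776 and 46893 in the WT libraries. WT 3 was highest both in this sum and in Cst3. Most of that rise in the sum came from Col1a2, at 21534 in WT 3 against 6149 and 5201 in WT 1 and 2. Col3a1 and Ogn were also highest in WT 3, while Dcn was highest in 5xFAD 3 and Col1a1 was lower in WT 3 than in WT 1 and 2. Of 15 leukocyte markers 2 were listed, Mrc1 and Cx3cr1, and 13 were not measured in the table used here. Their sum was 8187 to 11371 in 5xFAD and 8429 to 11862 in WT. Nearly all of it was Mrc1 (8105 to 11829 over the libraries), while Cx3cr1 was at 32.9 to 186, so the sum is a reading of 1 gene. Whether the Mrc1 reads came from leukocytes or from the sorted endothelial cells was not tested, so the sum does not measure leukocytes. Of 7 choroid plexus markers 2 were listed, Ttr and Aqp1 (also a blood endothelial gene), with a sum of 11447 to 23479 in 5xFAD and 11041 to 11781 in WT. The part of these cells in the Cst3 values was not tested.

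Cst3 varied together with Ctsb, the lysosomal protease cathepsin B, which cystatin C inhibits. Ctsb was at 5850, 2686 and 2112 in the 5xFAD libraries, against 2593, 5330 and 9876 in the WT libraries. The ratio of Cst3 to Ctsb was 1.09, 0.571 and 0.551 in 5xFAD and 1.19, 0.852 and 0.881 in WT. It spanned 2.15-fold over the 6 libraries, while Cst3 alone spanned 7.48-fold. Over the 6 libraries Pearson's r of their log2 values was 0.93, given as a description. The same measure for Ctsd, the aspartic protease cathepsin D, was 0.23, and the ratio of Cst3 to Ctsd spanned 8.34-fold. Ctsb was 1 of 3 cysteine cathepsins measured, and the others did not follow Cst3 in this way. Ctso was at 617, 1870 and 1900 in 5xFAD, against 202, 760 and 445 in WT, highest where Cst3 was lowest. The log2 fold changes of Ctsh and Ctso were 1.47 and 1.67, against -0.68 for Ctsb and -1.14 for Cst3. The pair of Cst3 and Ctsb was looked at after its values were seen.

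**Figure D3:**
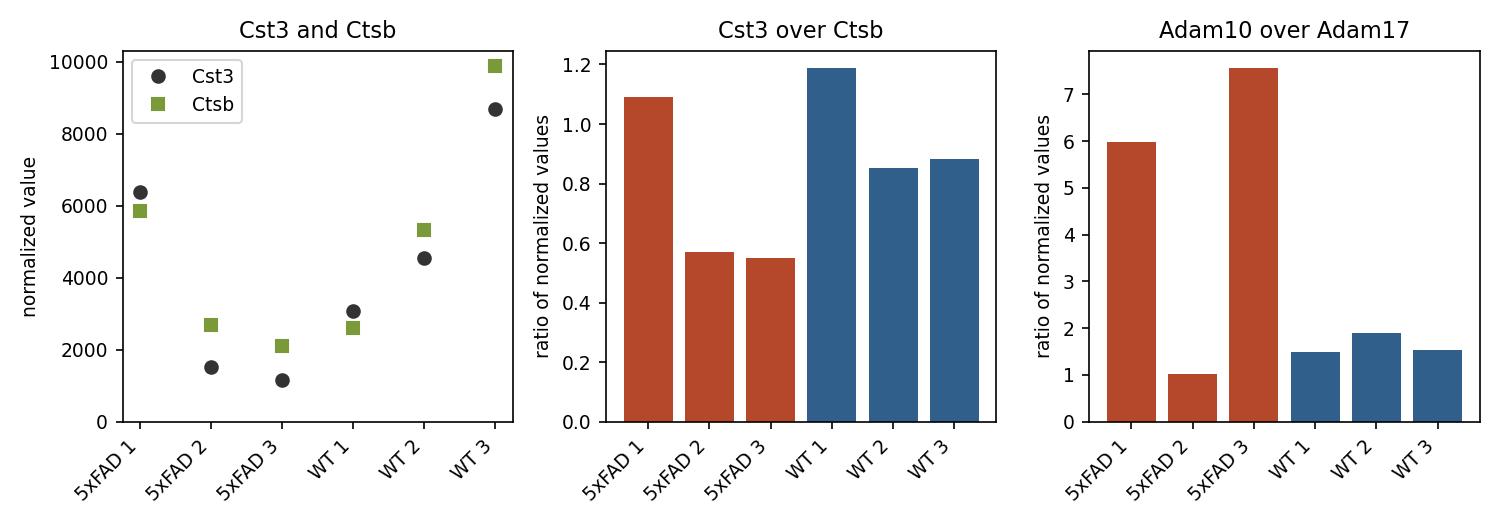
Left, normalized values of Cst3 (circles) and Ctsb (squares) in each library. Middle and right, the within-library ratios of Cst3 to Ctsb and of Adam10 to Adam17 (bars from 0), with 5xFAD libraries left of WT libraries; the first ratio lies between 0.551 and 1.19, and the second between 1.49 and 1.89 in WT but between 1.02 and 7.56 in 5xFAD.

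The 3 secretase genes and Ide followed the same order over the WT libraries, and Cst3 and Ece1 each had another. Adam10, Adam17, Ncstn and Ide were each highest in WT 2, then WT 1, and lowest in WT 3, an order found in 18.0% of all tested genes. Cst3 was highest in WT 3, then WT 2, and lowest in WT 1, an order found in 17.6% of them. Ece1 was highest in WT 1 and lowest in WT 2. In 5xFAD no order was common to all 6 genes or to the 4 that shared one in WT. Adam10, Ncstn and Ece1 were highest in 5xFAD 3, Adam17 and Ide in 5xFAD 2 and Cst3 in 5xFAD 1. Adam10 and Ece1 shared their full order there (5xFAD 3, then 1, then 2), as did Adam17 and Ide (5xFAD 2, then 3, then 1). Between pairs of the 6 genes, Pearson's r over the 6 libraries ran from -0.70 (Ncstn and Cst3) to 0.75 (Ncstn and Ide), as a description of values that share libraries and scaling.

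Per length, Ece1 and Cst3 were the abundant members and the other 4 were much lower. Normalized values were divided by the kilobases of exon in GENCODE M21, since levels of different genes can be compared only per length. Ece1 averaged 4176 ± 1400 per kilobase in 5xFAD and 7181 ± 946 in WT (SD, n = 3 each). Cst3 averaged 2390 ± 2299 in 5xFAD and 4296 ± 2305 in WT. Ece1 was above Cst3 in 5 of 6 libraries, and Cst3 above the third gene, Adam10, in 6 of 6. Among 3672 tested genes with a length, the percentile of Ece1 was 98.9 to 99.8 over the libraries, and that of Cst3 was 91.1 to 99.6.

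Adam10 averaged 449 ± 163 per kilobase in 5xFAD and 643 ± 418 in WT, next to Ncstn at 502 ± 311 in 5xFAD and 489 ± 134 in WT. Adam10 exceeded Ncstn in 3 of 6 libraries, so these neighbours did not differ beyond their spread. Ncstn exceeded Adam17 in 6 of 6 libraries, but with the coding length the lowest ratio was 1.0008, nearly a tie. Adam17 averaged 99.8 ± 80.04 in 5xFAD and 263 ± 153 in WT, and Ide 139 ± 63.7 in 5xFAD and 180 ± 160 in WT. Adam17 was above Ide in 4 of 6 libraries, all 3 of WT and 1 of 5xFAD, so their order was not settled either. With the longest transcript as length, Ncstn came before Adam10, and Ece1 was above Cst3 in 4 of 6 libraries, as it was with the coding length.

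**Figure D4:**
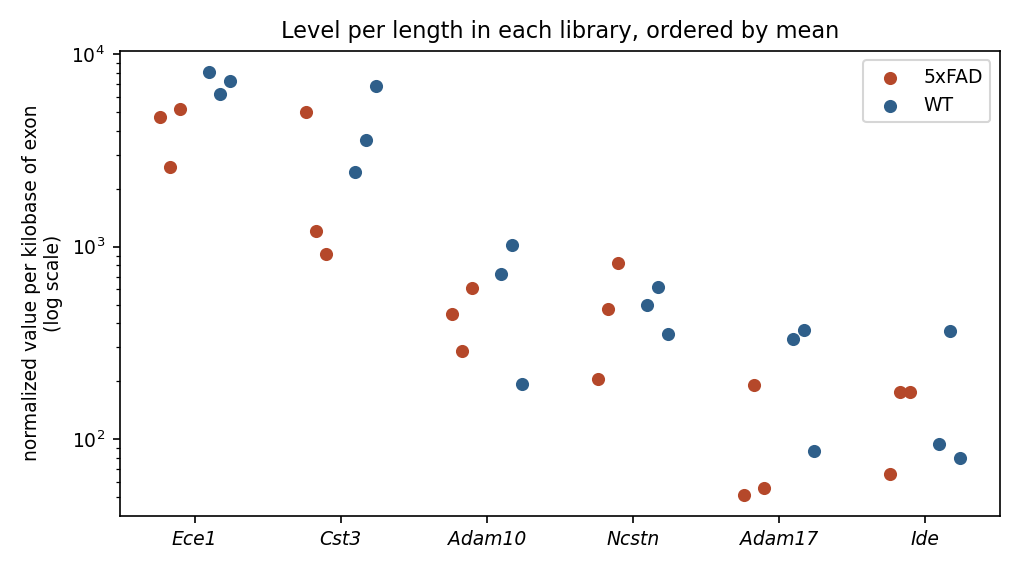
Normalized value per kilobase of exon (vertical axis, log scale) in each library for the 6 genes, ordered by their mean, with the 3 5xFAD libraries left of the 3 WT libraries. Ece1 and Cst3 lie highest, with means of 5679 and 3343 per kilobase, and Adam17 and Ide lie between 51.6 and 370.

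The genes whose levels over the 6 libraries were most like each member were taken from 3530 tested genes with a curated name, by Pearson's r of log2 values. For Adam10 they were Strip2 (r = 0.98), Clcn7 (0.98), a lysosomal chloride transporter, and Cyfip2 (0.96). For Adam17 they were Ppp2r3a (0.98), Ehd1 (0.98), which acts in endosome recycling, and Sp110 (0.98). Ncstn was most like Hoxd9 (0.98), Clmn (0.98) and Usp33 (0.97), a deubiquitinase. For Ece1 the nearest genes were Wtip (0.97), Bdnf (0.95) and Xiap (0.95), an inhibitor of caspases. Wtip was near the floor in 5xFAD, at 4.98, 0 and 7.96, so its r rests in part on very few reads. Ide was most like Sar1a (0.97), a GTPase of vesicle budding, Flcn (0.96) and Lix1 (0.96). The nearest to Cst3 were Mtch1 (0.97), Crk (0.96), a signalling adaptor, and Ace (0.96), angiotensin-converting enzyme, which also degrades amyloid beta. With 6 libraries such values arise readily when 3530 genes are compared, and between 3 and 12 genes per member exceeded 0.95.

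Beyond the 6 members, 39 of 139 other symbols of the 7 pathway lists were in the table, and limma called 0 of them higher and 3 lower in 5xFAD, against 1.88% and 4.48% of all tested genes. Counts within each list have the same background shares. Estimates were negative for 23 of the 39 and positive for 16, with a median of -0.37. Among all tested genes the median was -0.02 and 50.65% were negative. The 6 members had 6 negative estimates with a median of -0.56. No set test was made. Apart from Alcam (higher) and Ephb4 (lower), edgeR, DESeq2 and voom called no further gene of these lists.

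Of the secretase list, Adam9, a further alpha-secretase of the same family, was the 1 other gene measured. Adam9 was at 185, 340 and 34.5 in the 5xFAD libraries, against 267, 324 and 884 in the WT libraries (log2 fold change -1.70; limma adjusted p = 0.445). The groups overlapped.

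Among regulators of the sheddases 7 of 18 were measured and 1 passed, Timp1, a tissue inhibitor of metalloproteinases. Timp1 had 0 reads in all 3 5xFAD libraries, against normalized values of 254, 487 and 790 in WT. By counting error of the reads alone, it was at least 473-fold lower in 5xFAD, with a floor of 3 reads over the group (limma adjusted p = 4.72e-14). Error from the number of starting molecules of the amplified RNA is not in this bound. A gene at 0 in part of a group and high in the rest would also exceed the within-genotype SD limit that every listed gene meets. Without 5xFAD 1 the bound was 268, since fewer reads then stood behind the floor. Timp3, the inhibitor that acts on Adam17, had the highest mean normalized value of this list (not divided by length), at 53973, 40529 and 46004 in 5xFAD, against 43183, 45676 and 39969 in WT (log2 fold change 0.12; limma adjusted p = 0.913). Timp2 had a log2 fold change of -0.33, and the convertases Pcsk6 and Furin, of which Furin activates both sheddases, had -1.27 and -1.67. Tspan15, a tetraspanin that guides Adam10 to the cell surface, was at -0.98, and none of these 4 passed (limma adjusted p from 0.445 to 0.827).

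Of the membrane proteins that these enzymes shed or cleave, 19 of 50 symbols were measured and 2 passed, both lower in 5xFAD. Vcam1, an adhesion molecule shed by Adam17, was at 0, 12.2 and 6.63 in 5xFAD, against 1658, 515 and 233 in WT (log2 fold change -6.98; limma adjusted p = 9.41e-09). Jag2, a Notch ligand, was at 118, 371 and 138 in 5xFAD, against 1566, 997 and 4623 in WT (-3.40; limma adjusted p = 0.0132). Vcam1 kept passing with each library left out, at -5.87 without 5xFAD 1, -7.73 without 5xFAD 2, -6.22 without WT 1 and -7.64 without WT 3, and at -5.27 with a pseudocount of 10. Jag2 no longer passed without 5xFAD 1 (limma adjusted p = 0.0699), 5xFAD 3 (0.0530) or WT 3 (0.179, at -2.77). The substrates with the highest mean normalized values, not divided by length, did not pass: the log2 fold change was 0.12 for Flt4, -0.25 for Lyve1 and -0.37 for Ptprb. Alcam, a cell adhesion molecule shed by Adam17, had groups that did not overlap, with 6135, 1450 and 1031 in 5xFAD and 337, 684 and 123 in WT (log2 fold change 2.77; limma adjusted p = 0.0593). It passed with edgeR, DESeq2 and voom, and without 5xFAD 3 (limma adjusted p = 0.0466) or WT 2 (0.0492). Its size rested in part on single libraries, with a log2 fold change of 2.00 without 5xFAD 1 (limma adjusted p = 0.410) and 2.12 without WT 3 (0.306). Ephb4, a receptor for ephrin-B2, was the reverse, with 1880, 2085 and 2157 in 5xFAD and 14140, 6004 and 5879 in WT (-1.96; limma adjusted p = 0.0746). It passed with edgeR, DESeq2, quantile normalization, equal library totals and library weights, and not with voom or with any 1 library left out (limma adjusted p from 0.0784 to 0.431). Alcam and Ephb4 were singled out after their values were seen.

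Of 23 symbols for amyloid-degrading proteases 7 were measured, Ece1 and Ide among them, and limma called 0 of these, with Ece1 alone at an unadjusted p under 0.05. Ctsd was at 3751, 5278 and 5706 in 5xFAD, against 12799, 6790 and 11166 in WT, groups that did not overlap (log2 fold change -1.03; limma adjusted p = 0.411). Ace was at 969, 226 and 119 in 5xFAD, against 883, 758 and 1879 in WT (-1.86; limma adjusted p = 0.344). Nrd1, nardilysin, a relative of Ide, had a log2 fold change of 1.30 and Plau, urokinase, of -0.16. The table used here holds no value for neprilysin, the best known amyloid-degrading peptidase, so it was not analysed here.

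Of the cysteine proteases that cystatins inhibit, 3 of 11 were measured, and their estimates ran both ways. The log2 fold change was -0.68 for Ctsb, 1.47 for Ctsh and 1.67 for Ctso, and none passed (limma adjusted p from 0.412 to 0.734). Cst3 was the 1 cystatin of 11 in the table. Of the peptides that Ece1 and Ide process and the receptors for them, 5 of 21 were measured, all of them receptors; limma called 0, and 0 had an unadjusted p under 0.05. All 5 estimates were positive, with a median of 0.30. They included Calcrl, the receptor subunit for adrenomedullin in lymphatic vessels (0.22), Insr, the insulin receptor (0.55), and Igf1r (0.30).

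**Figure D5:**
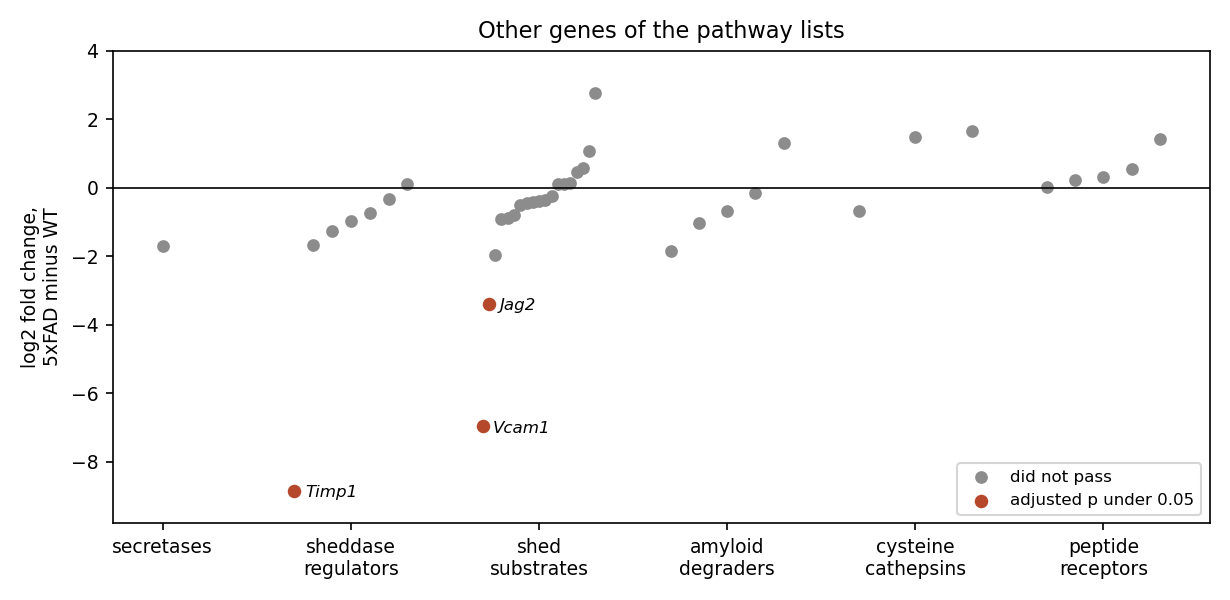
Log2 fold change (vertical axis, 5xFAD minus WT, of normalized value + 1) of the genes other than the 6 members in each pathway list. Red points passed the test and are named: Timp1, Vcam1 and Jag2, all lower in 5xFAD.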

How the data were processed

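Lymphatic endothelial cells from pools of 10 mice were sequenced as total RNA after linear amplification, per the labels' protocols. The deposited values are a normalized signal: whole numbers per gene, called reads here, scaled by a single factor in each library. Whether they are counted reads or rounded estimates from Salmon is not given in the sources used here. Per the submitters' processing notes, the tools were FastQC, Trimmomatic, Salmon and DESeq2 and the build mm10; their settings are not given in the sources used here. All values (100%) were whole multiples of the smallest value above 0 in their column within 1e-06. With that smallest value taken as 1 read, whole reads were recovered: 7960827 to 13255050 per library over 4233 listed genes, which is a part of each library. Each listed gene varied within each genotype by an SD of log2(reads + 1) below 2 (highest 1.999607), while 380 to 624 genes exceeded it in the 18 choices of 3 libraries that mix genotypes. All 6 members stayed within that limit in all 20 choices. A table chosen this way may overstate the number of genes that differ between genotypes.

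Genes with a mean of at least 10 (4152) were tested with limma 3.58.1 in R 4.3.3 on log2(value + 1), with a variance prior that follows the mean; adjusted p-values are Benjamini-Hochberg, two-sided, with calls under 0.05. The log2(value + 1) scale understates changes of low genes. Recovered reads were also tested with edgeR 4.0.16, with voom and with DESeq2 1.42.0. Alternatives were other scalings, filters and priors, and leaving out each library. Scripts were tested on simulated data. Lengths and coordinates are from GENCODE M21 (GRCm38, the assembly of mm10); all 6 members matched by symbol, also in the RefSeq promoter table. Named genes were the 6 members, the 3 genes most correlated with each, leaving out predicted and clone names, and the called and the 3 genes of each list with the highest mean normalized value; other list genes and markers named were chosen after their values were seen. The members and lists were chosen with earlier results of these data known. Replicate numbers did not pair the libraries. Transgene expression was not analysed here. Intervals cover the spread between pooled libraries.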

Additional observations from a re-analysis of the deposited data

How the results depend on the processing

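Over 15 other settings with all libraries, the sign and the side of the threshold of Adam10, Adam17, Ide and Cst3 were unchanged in all 15. Ece1 passed with quantile normalization (-1.03, 1 member called lower), and Ncstn turned to 0.036 with DESeq2; the cause was not tested. Leaving out 1 library gave -0.998 to 0.20 for Adam10, -2.09 to -1.05 for Adam17, -0.61 to 0.39 for Ncstn, -1.03 to -0.52 for Ece1, -0.55 to 0.54 for Ide and -1.89 to -0.66 for Cst3. Adam10 was positive without 5xFAD 2 (0.0085) or WT 2 (0.20), Ncstn without 5xFAD 1 (0.39) or WT 2 (0.047) and Ide without 5xFAD 1 (0.33) or WT 2 (0.54). Without single libraries 0 to 0 members were called in either direction, 56 to 84 genes were higher and 145 to 192 lower.

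Over all genes, 78 genes were called higher and 186 lower; the counts were 49 and 116 at a minimum mean of 50, 120 and 160 with quantile normalization, 163 and 264 with DESeq2, 134 and 229 at an adjusted p under 0.1, and 1 and 0 when only the 2824 genes under the SD of 2 in every trio of libraries were tested, which leaves out genes with large differences. In the pathway lists beyond the members 1 gene was higher, Alcam, with edgeR, DESeq2 and voom and at an adjusted p under 0.1, 4 were lower, with Ephb4 added, with edgeR, DESeq2, quantile normalization, equal library totals and library weights and at an adjusted p under 0.1, and 0 were lower in that smaller set, which does not test Timp1, Vcam1 or Jag2. Leaving out single libraries gave 0 to 1 higher and 2 to 3 lower. Ece1 over Cst3 per kilobase was 1.70, and 1.27 with the longest transcript or 1.32 with the coding length. With the replicate block the Ece1 difference was -0.84 (limma adjusted p = 0.166), 0 members were called, and over all genes 80 were higher and 190 lower; deviations from the group means correlated at 0.00247, -0.0157 and -0.0126 between libraries of equal number, and for 0 of 6 libraries was the equal number the best match. With library totals made equal, the all-gene median was -0.14, against -0.02 as reported, and 0 members were called. With 3 libraries a group, the intervals of all 6 members include differences of over 2-fold, that of Ece1 down to 0.343 times WT. Those of Adam10, Adam17, Ncstn, Ide and Cst3 also include no difference, so for these genes even changes of over 2-fold could go undetected here.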
